A study of Mus musculus with 4 samples.

Results

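The genes described here decide how a cell sees adrenal steroids: the corticosteroid receptors Nr3c1 and Nr3c2, the chaperones Fkbp4 and Ptges3 that hold a receptor ready for hormone, the enzymes Hsd11b1, Hsd11b2 and Srd5a1 that make or remove active steroid within a cell, and the coregulators Ncoa1, Ncoa2 and Ncor1 that a receptor recruits at its target genes. They were taken by name, as every array probe whose gene name is that of one of the 10 genes, which gave 20 probes of 39429 on the array and 10 of 27516 distinct gene names. The rule uses the genes' names and function and no measured value, though the genes were named with earlier results of these data known. Of the 20 probes, 18 were well above background on all 4 arrays and stand for 9 of the 10 genes, while 2 probes were well above background on none. These 2 were the only probe of Hsd11b2 and the dimmer probe of Srd5a1.

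RNA came from slices of the lumbar spinal cord (L4 to L5) of male mice of the outbred ICR stock taken on day 7 after a partial ligation of the sciatic nerve (PSL), an injury that makes the hindpaw hypersensitive to touch. All mice carried the ligation, and uninjured mice were not on these arrays. In the paper, the hindpaw of the ligated side became hypersensitive in sham+PSL mice, while its withdrawal threshold did not fall in ADX+PSL mice. Both operations were sampled at ZT10 and at ZT22: sham+PSL mice, which had a sham adrenal operation and kept their adrenal glands, and ADX+PSL mice, whose adrenal glands had been removed. ZT counts hours from lights on, and by the series' design ZT10 stands for high and ZT22 for low blood glucocorticoid in mice with adrenal glands. Adrenalectomy takes away all adrenal hormones, aldosterone and adrenaline included, and not corticosterone alone. The paper states that adrenalectomized mice were given saline to drink and does not state it for sham mice. Saline and the loss of the glands thus cannot be told apart between the operations. Each condition had 1 array, the 4 arrays lay on 1 slide, and the number of mice behind each RNA and the side of the cord are not given in the sources used here.

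Corticosterone, the main glucocorticoid of mice, enters the cell and binds the glucocorticoid receptor or, with higher affinity, the mineralocorticoid receptor. The unliganded receptor sits in a complex with heat shock protein and co-chaperones, and the liganded receptor moves to the nucleus, where coactivators and corepressors set its effect on transcription. Inside the cell Hsd11b1 regenerates corticosterone from its inert keto form, Hsd11b2 does the reverse, and Srd5a1 reduces corticosterone and other steroids to products that include neuroactive steroids. ZT10 was thus compared with ZT22 in each operation, and ADX+PSL with sham+PSL at each time. These comparisons ask whether the machinery that receives the hormone differed, along with the hormone itself, in the cord of nerve-injured mice.

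Levels are the quantile-normalized intensities deposited by the authors, in arbitrary units on a linear scale, and the levels of different probes are not comparable with each other. Differences are given on the log2 scale, as ZT10 minus ZT22 or as ADX+PSL minus sham+PSL. With 1 array per condition there is no spread between replicates. The only error at hand is that of the spot, from the error model of the scanner software, which was between 0.20 and 0.22 for the log2 difference of a probe of these genes between 2 arrays and leaves out the differences between mice and between slices. In such tissue RNA, fewer cells of a type and less RNA per cell cannot be told apart. Between 65.1% and 70.1% of the probes were well above background on an array. Markers of neurons, astrocytes and oligodendrocytes were above background for 10 of 10 genes each, and the 9 Hox genes of the lumbar cord for 9 of 9, as the labelled tissue has it. Other lists set single arrays or operations apart: the summed level of red blood cell markers was 22962 in sham+PSL at ZT22 against 93716 to 139955 on the other arrays, and that of meningeal fibroblast markers was 17964 and 19896 in sham+PSL against 6646 and 6919 in ADX+PSL.

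Nr3c1 encodes the glucocorticoid receptor. The brighter of its probes (A_55_P1967885, chr18:39571641-39571700, minus strand, mm9) had levels of 6282 (ZT10) and 7909 (ZT22) in sham+PSL mice and of 6677 (ZT10) and 6677 (ZT22) in ADX+PSL mice. The sham+PSL array at ZT22 was the highest, beyond the spot error of its nearest neighbour, and the other arrays did not differ from their neighbours beyond that error. The log2 difference between the times was -0.33 in sham+PSL, a level 1.26-fold higher at ZT22, and 0.00 in ADX+PSL. The dimmer probe (A_52_P254174, chr18:39574183-39574242) had 243 and 331 in sham+PSL mice and 210 and 257 in ADX+PSL mice, at ZT10 first. Its log2 difference between the times was -0.45 for sham+PSL and -0.29 for ADX+PSL mice. Between the operations it had log2 differences of -0.21 at ZT10 and -0.37 at ZT22, and the brighter probe had 0.09 and -0.24. Over 6 alternatives the value of the brighter probe at ZT22 ran from -0.27 to -0.15, in part within its spot error of 0.20. Both probes thus had their highest level in sham+PSL mice at ZT22, while they gave different values for ADX+PSL. On that array the summed level of the microglial markers was also the highest (112489 against 88324 to 97132) and that of the red blood cell markers the lowest. The part of these lists in the Nr3c1 values was not tested. By quantitative RT-PCR in replicate mice, the paper found no significant variation of Nr3c1 mRNA with time in the cord of sham+PSL mice, and no change on the injured side.

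Nr3c2 encodes the mineralocorticoid receptor, and its probe (A_55_P2141978, chr8:79766370-79766429, plus strand, mm9) had levels of 130 (ZT10) and 124 (ZT22) in sham+PSL mice and of 90.9 (ZT10) and 103 (ZT22) in ADX+PSL mice. Both ADX+PSL arrays lay below both sham+PSL arrays, the gap between the operations was beyond the spot error, and the times did not differ beyond that error within either operation. ADX+PSL was lower than sham+PSL by 1.43-fold at ZT10 (log2 difference -0.51) and by 1.20-fold at ZT22 (log2 difference -0.26). Over 6 alternatives the difference ran from -0.55 to -0.30 at ZT10 and from -0.29 to -0.16 at ZT22. At ZT22 it was within the spot error of 0.22 without normalization between arrays (-0.16) and with normexp (-0.18). Among the 9 genes above background on all arrays, each by its brightest probe, Nr3c2 was the only one with both ADX+PSL arrays below both sham+PSL arrays, against 15.9% of all 17932 genes measured on all arrays. An additive limma fit over all probes, with operation and time as terms, gave Nr3c2 an operation effect of -0.39 ± 0.14 (SE, log2 scale) with an adjusted p of 0.8. This fit has 1 residual degree of freedom and takes as its error the extent to which the time difference of one operation departs from that of the other. The meningeal fibroblast markers moved the same way and further: all 11 genes measured on every array had both ADX+PSL levels under both sham+PSL levels, with median log2 differences of -1.70 at ZT10 (over the 12 genes measured there) and -1.96 at ZT22 (over the 11). Of the 10 microglial markers, 5 had this pattern, with medians of -0.23 and -0.37. The part of either list in the Nr3c2 values was not tested.

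**Figure D1:**
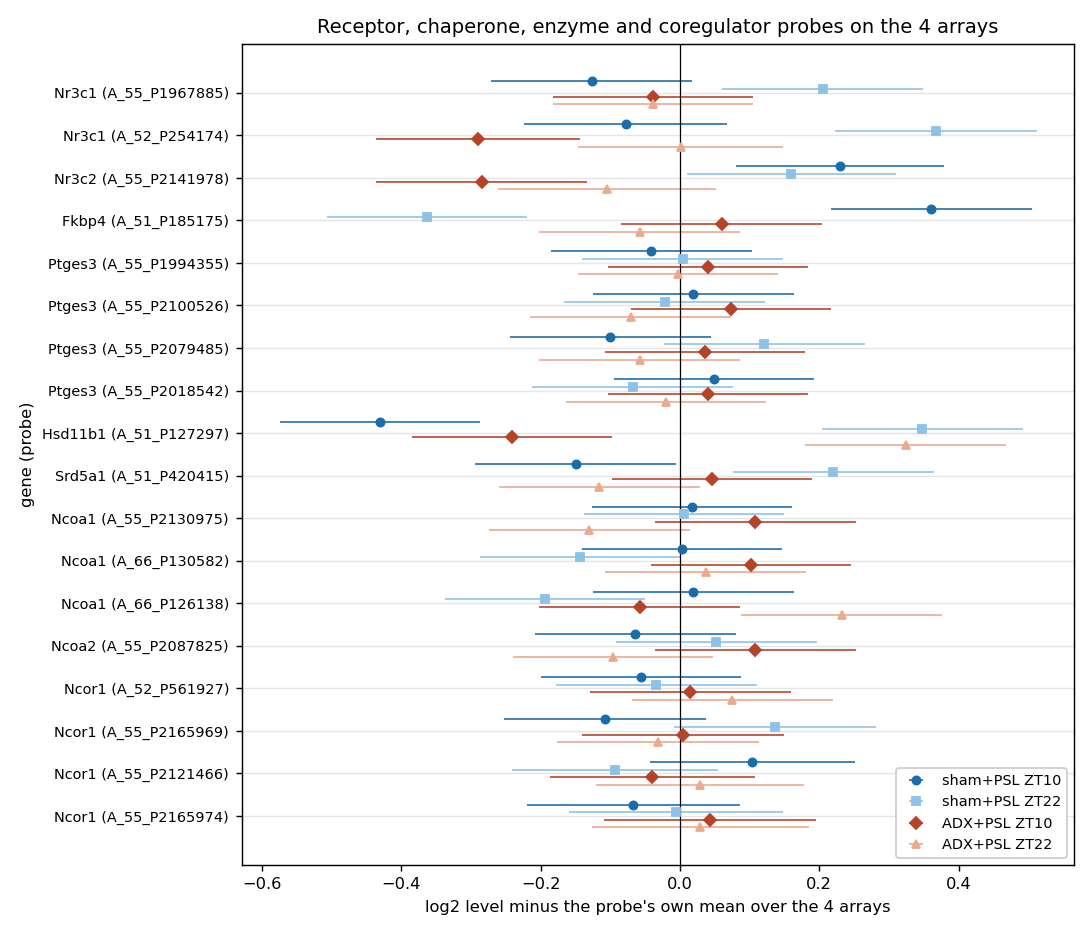
Log2 level of each of the 18 probes above background, as the difference from the probe's own mean over the 4 arrays (horizontal axis), with 1 symbol per array and bars of 1 spot error of that array's log2 level. Hsd11b1 splits by time of day, Nr3c2 splits by operation, the sham+PSL arrays of Fkbp4 lie at opposite ends, and the symbols of Ptges3 and Ncor1 overlap within their bars.

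Hsd11b1, the enzyme that regenerates active corticosterone, differed by time of day in both operations. Its probe (A_51_P127297, chr1:195048169-195048228, minus strand, mm9) was printed in 10 spots on each array, and its first 30 bases of 60 are shown because they identify the transcript measured.
Hsd11b1 probe: aaggacatgtttgtaagtaactaggaactc
The level was 1659 (ZT10) and 2847 (ZT22) in sham+PSL mice and 1892 (ZT10) and 2799 (ZT22) in ADX+PSL mice. Both ZT22 arrays were above both ZT10 arrays, and within each time the operations did not differ beyond the spot error. The level at ZT22 was 1.72-fold that at ZT10 in sham+PSL (log2 difference -0.78) and 1.48-fold in ADX+PSL (log2 difference -0.56). Of the 9 genes by their brightest probes, Hsd11b1 alone had both ZT10 arrays below both ZT22 arrays, against 15.4% of all genes measured. Among all 18 probes the dimmer Nr3c1 probe had this order too, with 243 and 210 at ZT10 and 331 and 257 at ZT22, sham+PSL first.

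The spots of the Hsd11b1 probe allow a closer look at the error within an array. Their processed signal, before normalization between arrays, ran from 1527 to 1817 with a median of 1714 at ZT10 in sham+PSL mice, and from 2640 to 2868 with a median of 2750 at ZT22. In ADX+PSL the spots lay between 1743 and 1886 with a median of 1839 at ZT10, and between 2859 and 2982 with a median of 2921 at ZT22. No spot of a ZT10 array reached the lowest spot of a ZT22 array, and the SD of the log2 signal over the 10 spots was between 0.018 and 0.065. These spots share 1 RNA per array and count as 1 measurement of the condition. In the additive limma fit the time effect of Hsd11b1 was -0.67 ± 0.13 (SE), with an unadjusted p of 0.016 and an adjusted p of 0.93. It was the 1 probe of the 18 with an unadjusted p under 0.05 for time, where 4.92% of all 28843 probes tested had one, and no probe of the array passed an adjusted p of 0.05.

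**Figure D2:**
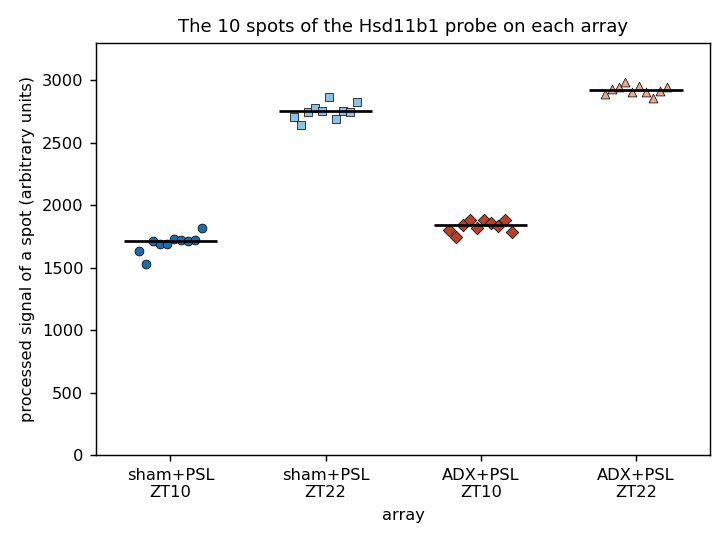
Processed signal (vertical axis, arbitrary units, before normalization between arrays) of each of the 10 spots of the Hsd11b1 probe on the 4 arrays, with a line at the median. The spots of the ZT10 arrays lie between 1527 and 1886 and those of the ZT22 arrays between 2640 and 2982, with no overlap.

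Microglial markers were lower at ZT10 together with Hsd11b1. All 10 of them were lower at ZT10 in sham+PSL, with a median log2 difference of -0.43, and 9 of 10 in ADX+PSL, with a median of -0.34, and none was below background. Their summed level was 88324 at ZT10 and 112489 at ZT22 in sham+PSL and 89081 and 97132 in ADX+PSL. In sham+PSL the red blood cell and fast skeletal muscle markers went the other way, with medians of 3.05 and 1.86 over the 7 genes measured in each list, while in ADX+PSL their medians were 0.06 and 0.03. The part of these lists in the Hsd11b1 values was not tested.

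Hsd11b2, which inactivates corticosterone and in the kidney shields the mineralocorticoid receptor from it, did not come well above background on the arrays. Its probe (A_51_P410205, chr8:108046785-108047002, plus strand, mm9, spanning an intron) had signals of 7.34 (ZT10) and 3.78 (ZT22) in sham+PSL mice and of 4.52 (ZT10) and 3.83 (ZT22) in ADX+PSL mice. These signals are of no use for a fold change, and no level or difference is given for the gene. Of the pair of enzymes that turn corticosterone on and off, these arrays thus measured Hsd11b1 and not Hsd11b2.

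Srd5a1 encodes a steroid reductase that acts on corticosterone, progesterone and testosterone. Its probes differed in whether they came well above background, and the first 30 bases of both are shown because they lie at different places of the gene.
Srd5a1 probe A_51_P420415: agaggaatcttgtcttaacactatactcta
Srd5a1 probe A_52_P562612: ctgaaagtttacatcgtgaaccacagttag
The first, at chr13:69712376-69712435 on the minus strand (mm9), had levels of 3322 (ZT10) and 4294 (ZT22) in sham+PSL mice and of 3808 (ZT10) and 3402 (ZT22) in ADX+PSL mice. The second, at chr13:69733518-69733577, was annotated on another transcript of the locus and had signals of 3.81 to 3.94, none of them well above background. On the first probe the sham+PSL array at ZT22 was again the highest, and no array differed from its nearest neighbour beyond the spot error. The log2 difference between the times was -0.37 in sham+PSL, a level 1.29-fold higher at ZT22 and beyond the spot error, and 0.16 in ADX+PSL. The time difference in ADX+PSL minus that in sham+PSL was 0.53, with a spot error of 0.29, and could not be tested with 1 array per condition. Between the operations the probe had 0.20 at ZT10 and -0.34 at ZT22, and only the latter was beyond its spot error of 0.20. As for Nr3c1, the array with the highest level was the one with the highest microglial and the lowest red blood cell sum, and their part was not tested.

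Fkbp4 encodes FKBP52, the immunophilin co-chaperone that couples the receptor complex to transport toward the nucleus. Its probe (A_51_P185175, chr6:128380528-128380587, minus strand, mm9) is shown by its first 30 bases, since it carries the largest time difference in sham+PSL after Hsd11b1.
Fkbp4 probe: tcccccgttacacacaagtgtatatccttt
The level was 1487 (ZT10) and 900 (ZT22) in sham+PSL mice and 1207 (ZT10) and 1112 (ZT22) in ADX+PSL mice. The sham+PSL arrays were the highest and the lowest of all, both beyond the spot error of their neighbours, and the ADX+PSL arrays lay between them and did not differ beyond it. The level at ZT10 was 1.65-fold that at ZT22 in sham+PSL (log2 difference 0.72) and 1.09-fold in ADX+PSL (log2 difference 0.12). The log2 difference between the times was thus smaller in ADX+PSL by 0.61, with a spot error of 0.29, and this could not be tested with 1 array per condition. Between the operations the probe thus went opposite ways at the times, each beyond the spot error, which 5.08% of the 25009 probes measured on all arrays did. In the additive limma fit the time effect was 0.42 ± 0.21 (SE) with an adjusted p of 0.93. Neuronal markers were higher at ZT10 as well, in 10 of 10 genes in sham+PSL with a median log2 difference of 0.17 and a summed level of 384276 against 335652, and in 8 of 10 genes in ADX+PSL with a median of 0.10 and a summed level of 354037 against 328544. Red blood cell and muscle markers were higher at ZT10 in sham+PSL by the medians given above. Between the operations the red blood cell markers went opposite ways as Fkbp4 did, with median log2 differences of -0.51 at ZT10, where 7 of 7 genes were lower in ADX+PSL, and 2.38 at ZT22, where 6 of 7 were higher. The part of these lists in the Fkbp4 values was not tested.

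Ptges3 encodes p23, which stabilizes the hormone-binding form of the receptor complex. The brightest of its 4 probes (A_55_P1994355, chr10:127513950-127514009, plus strand, mm9) had levels of 11715 (ZT10) and 12089 (ZT22) in sham+PSL mice and of 12398 (ZT10) and 12029 (ZT22) in ADX+PSL mice. No array differed from its neighbour beyond the spot error on any of the 4 probes, and the highest array was between 1.06-fold and 1.17-fold the lowest. The largest of these, on the probe A_55_P2079485, was between the sham+PSL arrays, with a log2 difference of -0.22 and a spot error of 0.20. Fkbp4, its partner in the complex, spanned 1.65-fold.

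**Figure D3:**
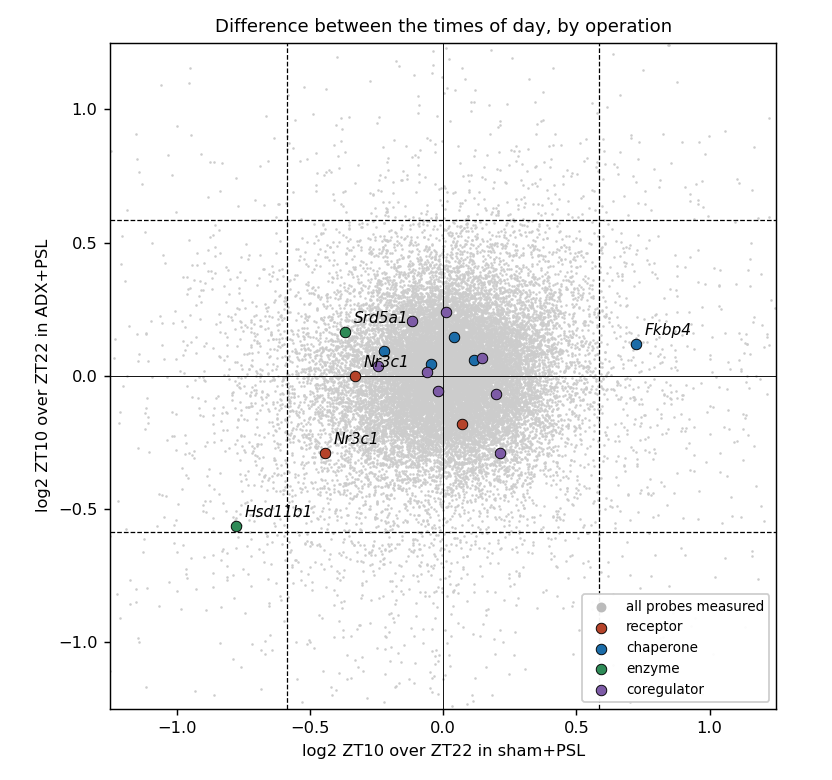
Log2 difference between ZT10 and ZT22 in sham+PSL (horizontal axis) and in ADX+PSL (vertical axis) for the 25009 probes above background on all 4 arrays (grey, those beyond the axes not drawn) and for the 18 probes described, coloured by role. Dashed lines mark a 1.5-fold difference. Hsd11b1 lies at -0.78 and -0.56 and Fkbp4 at 0.72 and 0.12, and the other probes lie within the dashed lines on both axes.

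The coactivator Ncoa1 was measured by 3 probes. The brightest (A_55_P2130975, chr12:4249455-4249514, minus strand, mm9) had levels of 5818 (ZT10) and 5773 (ZT22) in sham+PSL mice and of 6195 (ZT10) and 5253 (ZT22) in ADX+PSL mice. The next (A_66_P130582, chr12:4247469-4247528) had 3658 and 3305 in sham+PSL mice and 3918 and 3744 in ADX+PSL mice, at ZT10 first. Neither had an array that differed from its neighbour beyond the spot error. The dimmest (A_66_P126138, chr12:4249868-4253693, spanning an intron) had 2539 and 2192 in sham+PSL mice and 2409 and 2945 in ADX+PSL mice. On this probe the ADX+PSL array at ZT22 was the highest beyond the spot error, and the times went opposite ways, with a log2 difference of 0.21 for sham+PSL and -0.29 for ADX+PSL mice, as 5.39% of the 25009 probes did beyond the spot error.

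Ncoa2, a related coactivator (A_55_P2087825, chr1:13129343-13129402, minus strand, mm9), had levels of 1184 (ZT10) and 1283 (ZT22) in sham+PSL mice and of 1334 (ZT10) and 1158 (ZT22) in ADX+PSL mice. Its neighbours in order of level did not differ beyond the spot error. The corepressor Ncor1 had 4 probes, and the brightest (A_52_P561927, chr11:62134649-62134708, minus strand, mm9) had levels of 888 (ZT10) and 901 (ZT22) in sham+PSL mice and of 933 (ZT10) and 972 (ZT22) in ADX+PSL mice. Both ADX+PSL arrays were above both sham+PSL arrays on this probe, within the spot error, as was so for 18.8% of all genes. Over its 4 probes the highest array was between 1.08-fold and 1.19-fold the lowest, and no array differed from its neighbour beyond the spot error. Differences beyond the spot error in the comparisons of 2 arrays were nevertheless seen, beside those of the intron-spanning Ncoa1 probe. Between the times in sham+PSL mice the Ncor1 probe A_55_P2165969 had -0.25. Between the times in ADX+PSL mice the brightest Ncoa1 probe had 0.24 and Ncoa2 had 0.20. The value of Ncoa2 passed its spot error only before rounding, both being 0.20, and ran from 0.08 to 0.23 over 6 alternatives. That of the brightest Ncoa1 probe ran from 0.12 to 0.24 over them.

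Taking the 18 probes as a group, 2 of them (11.1%) were at least 1.5-fold apart by time in sham+PSL mice, where 6.49% of the 25812 probes above background on both arrays were. Fkbp4 was the 1 probe higher at ZT10, against 2.69% of all probes, and Hsd11b1 the 1 probe lower, against 3.80%. In ADX+PSL 0 of 18 did between the times, against a background of 5.17%. Between the operations 0 of 18 did at ZT10, against 7.03%, and 0 of 18 at ZT22, against 6.31%. With 18 probes, these shares are near the background and mark no difference of the group from other probes. The median log2 difference of the 18 probes was -0.03 between the times in sham+PSL, 0.04 between the times in ADX+PSL, 0.08 between the operations at ZT10 and -0.04 between the operations at ZT22. A difference beyond the spot error was seen for 8 (44.4%), 5 (27.8%), 3 (16.7%) and 6 (33.3%) of the 18 probes in these comparisons, and for 35.4%, 31.5%, 33.0% and 35.6% of all probes. In the additive limma fit 0 of 18 passed an adjusted p of 0.05 for either term, and 0% of 28843 probes did. For operation 0 of the 18 had an unadjusted p under 0.05, where 6.25% of all probes had.

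**Figure D4:**
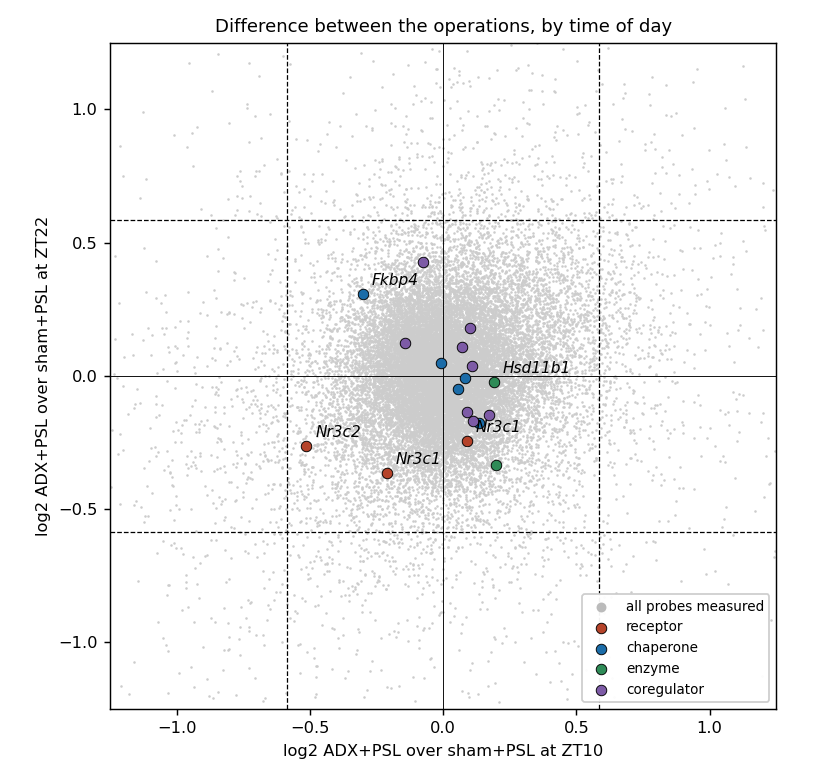
Log2 difference between ADX+PSL and sham+PSL at ZT10 (horizontal axis) and at ZT22 (vertical axis) for the 25009 probes above background on all 4 arrays (grey, those beyond the axes not drawn) and for the 18 probes described, coloured by role. Dashed lines mark a 1.5-fold difference. All 18 lie within the dashed lines, with Nr3c2 lowest at ZT10 at -0.51 and the dimmer Nr3c1 probe lowest at ZT22 at -0.37.

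The genes whose pattern over the 4 arrays lay nearest to those of Hsd11b1 and Fkbp4, the 2 genes with the widest range, were found by the Euclidean distance between log2 levels centred on each gene's own mean, over 17931 other genes. Nearest to Hsd11b1 were Ccnb1, which encodes cyclin B1 (distance 0.094, levels 47.6 and 82.1 in sham+PSL mice and 51.7 and 74.7 in ADX+PSL mice, at ZT10 first), the transcript named NAP095950-001 (0.104) and AI314604 (0.105). Nearest to Fkbp4 were Tas2r131, a bitter taste receptor gene (0.036), Gm2590 (0.056) and Nrip2 (0.056, levels 1954 and 1185 in sham+PSL mice and 1551 and 1509 in ADX+PSL mice). With 4 points per gene many genes lie close by, and the distances are a description.

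The promoters of Hsd11b1 and Fkbp4, the genes that differed at least 1.5-fold by time, are shown as the 250 bases before the start in RefSeq (GRCm38.p6, read along the gene's strand), with the matches to 7 motifs in capitals. The motifs, searched on both strands, were the E-box CACGTG and the D-box TTANGTAA of clock factors, the ROR half-site AGGTCA, the receptor half-site AGAACA, the full receptor element AGAACANNNTGTTC, which contains the half-site, the heat shock element GAANNTTC and the CCAAT box.
Hsd11b1, chr1:193242361-193242610, minus strand: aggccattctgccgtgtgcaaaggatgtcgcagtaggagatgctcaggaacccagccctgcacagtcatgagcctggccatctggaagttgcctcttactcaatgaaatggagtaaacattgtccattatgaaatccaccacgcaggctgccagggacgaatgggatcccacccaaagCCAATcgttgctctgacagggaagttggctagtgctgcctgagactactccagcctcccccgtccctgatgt
Fkbp4, chr6:128438657-128438906, minus strand: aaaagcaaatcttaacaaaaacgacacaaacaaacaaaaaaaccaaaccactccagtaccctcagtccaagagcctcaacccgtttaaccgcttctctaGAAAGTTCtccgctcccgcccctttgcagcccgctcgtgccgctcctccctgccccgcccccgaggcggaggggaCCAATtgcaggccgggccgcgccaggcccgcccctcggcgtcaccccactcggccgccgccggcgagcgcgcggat
In the Hsd11b1 window the only match was a CCAAT box that begins at -72, and 33.8% of the 32851 promoters of the table hold one. The Fkbp4 window held a heat shock element at -151, a motif found in 6.69% of promoters, and a CCAAT box at -76. Nr3c2 held a heat shock element and 3 CCAAT boxes, Srd5a1 held 1 CCAAT box, and 1 of the promoters of Ncor1 held the receptor half-site at 2 places, a motif found in 16.1% of promoters. No match to the E-box (6.02% of promoters), the D-box (2.06%), the ROR half-site (14.0%) or the full receptor element (0.0304%) was found in the 8 promoters read for 7 of the genes. The promoters of Nr3c1, Hsd11b2 and Ncoa2 were not read. A match is a description of the letters, and its absence says only that they are not in this window.

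Other genes of the pathway were taken from 4 lists, each gene by its brightest probe. Of 20 further receptor chaperones and co-chaperones, 20 were measured, and 0 differed at least 1.5-fold in any of the 4 comparisons, so that no other chaperone of the list had a difference of the size of Fkbp4. Their median log2 difference between the times was 0.10 for sham+PSL and 0.13 for ADX+PSL mice, against 0.01 and 0.00 over all genes, and 12 of the 20 had both ZT10 arrays above both ZT22 arrays, against 18.0% of all genes. This count takes no account of the size of a gap, and some gaps were small. The lower ZT10 and the higher ZT22 level were 15589 and 15582 for Dnaja1 and 27397 and 27242 for Cdc37. Fkbp5 had a wider gap, with 1398 and 1201. The neuronal markers had 7 of 10 genes with both ZT10 arrays above both ZT22 arrays, and their part in the chaperone values was not tested. The widest differences were those of Hspa4, Dnajb1 and Hsph1, chaperones of the heat shock protein families. Hsph1 had levels of 14496 (ZT10) and 11137 (ZT22) in sham+PSL mice and of 15533 (ZT10) and 13197 (ZT22) in ADX+PSL mice. Dnajb1 had 11793 and 11647 in sham+PSL mice and 14604 and 10976 in ADX+PSL mice, which are log2 differences between the times of 0.02 and 0.41. Hspa4 had 5583 and 4967 in sham+PSL mice and 6289 and 4714 in ADX+PSL mice, a log2 difference of 0.42 between the times in the latter, where its other probes had 0.11 and 0.10. Fkbp5, the co-chaperone that glucocorticoids induce and that competes with Fkbp4 in the complex, ranked 4 in this list and had log2 differences between the times of 0.33 for sham+PSL and 0.37 for ADX+PSL mice.

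Of 29 further coactivators and corepressors, 1 differed at least 1.5-fold, in the comparison of the operations at ZT22. This was Ppargc1b, a coactivator of metabolic genes, with levels of 166 (ZT10) and 178 (ZT22) in ADX+PSL mice. Both ADX+PSL arrays were above both sham+PSL arrays, by 1.28-fold at ZT10 and 1.67-fold at ZT22, and the operation effect of the limma fit was 0.55 ± 0.16 (SE) with an adjusted p of 0.79. Crebbp and Pias2, next in the list, stayed under 1.5-fold, and the probes of Crebbp went opposite ways.

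The widest differences of all the lists were in the sulfotransferases, which attach sulfate to steroids and phenols and so inactivate them or make them soluble. Sult2b1 had levels of 417 (ZT10) and 132 (ZT22) in sham+PSL mice and of 417 (ZT10) and 120 (ZT22) in ADX+PSL mice. The ZT10 arrays had the same level, 3.16-fold that of ZT22 in sham+PSL and 3.48-fold in ADX+PSL. Sult1a1 had 547 and 247 in sham+PSL mice and 516 and 173 in ADX+PSL mice on its brighter probe, and 496 and 227, and 500 and 156, on the other. Its level at ZT10 was 2.21-fold that at ZT22 in sham+PSL and 2.98-fold in ADX+PSL on the brighter probe. In the additive limma fit the time effect was 1.73 ± 0.12 (SE) for Sult2b1, with an adjusted p of 0.81, and the adjusted p for Sult1a1 was 0.93. Both thus had the same direction by time with and without the adrenal glands, the reverse of the direction of Hsd11b1.

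The list that holds them, of steroid synthesis, inactivation and transport, had 37 genes on the array, of which 8 were above background on no array, the aldosterone synthase Cyp11b2 and the aromatase Cyp19a1 among them. In sham+PSL 3 of 26 genes were at least 1.5-fold higher at ZT10 and 0 lower, against 2.58% and 3.91% of all genes. In ADX+PSL 4 of 26 were higher and 1 was lower, against 1.91% and 3.24%. Between the operations 1 of 26 was higher in ADX+PSL at ZT10 and 0 lower, against 3.07% and 3.77%, and at ZT22 3 of 27 were higher and 3 lower, against 2.89% and 3.38%. The third of the genes named by rule was Srd5a3, a reductase of dolichol synthesis, with levels of 515 (ZT10) and 529 (ZT22) in sham+PSL mice and of 1082 (ZT10) and 465 (ZT22) in ADX+PSL mice. Its high array was not seen by its other probe, which had 593 and 579 in sham+PSL mice and 515 and 488 in ADX+PSL mice. The remaining genes past 1.5-fold, named after their values were seen, were Srd5a2, Hsd17b11, Abcb1b, Hsd17b7, Por and Cyp11b1. Between the operations at ZT22, Hsd17b11, Abcb1b and Hsd17b7 were lower in ADX+PSL, and Srd5a2 and Por were higher. Srd5a2 was dim, with levels from 30.2 to 52.7, and Cyp11b1 was not well above background on all arrays. Of 25 genes measured on all arrays, 9 had both ADX+PSL arrays below both sham+PSL arrays, against 15.9% of all genes. The meningeal fibroblast markers moved the same way, and their part in this count was not tested.

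Among 22 other steroid and orphan nuclear receptors, 0 differed at least 1.5-fold by time in sham+PSL and 1 in ADX+PSL, the orphan receptor Nr2c2. It had levels of 1044 (ZT10) and 781 (ZT22) in sham+PSL mice and of 1006 (ZT10) and 627 (ZT22) in ADX+PSL mice, and was higher at ZT10 by 1.34-fold and 1.60-fold. Its other probe had 633 and 471 in sham+PSL mice and 621 and 403 in ADX+PSL mice, and so gave the same order. Between the operations 1 was lower in ADX+PSL at ZT22, the immediate early receptor Nr4a1, with 1705 and 2497 in sham+PSL mice and 2313 and 1663 in ADX+PSL mice, at ZT10 first. Esrrb, the third of the list, had 1147 and 796 in sham+PSL mice and 997 and 903 in ADX+PSL mice.

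**Figure D5:**
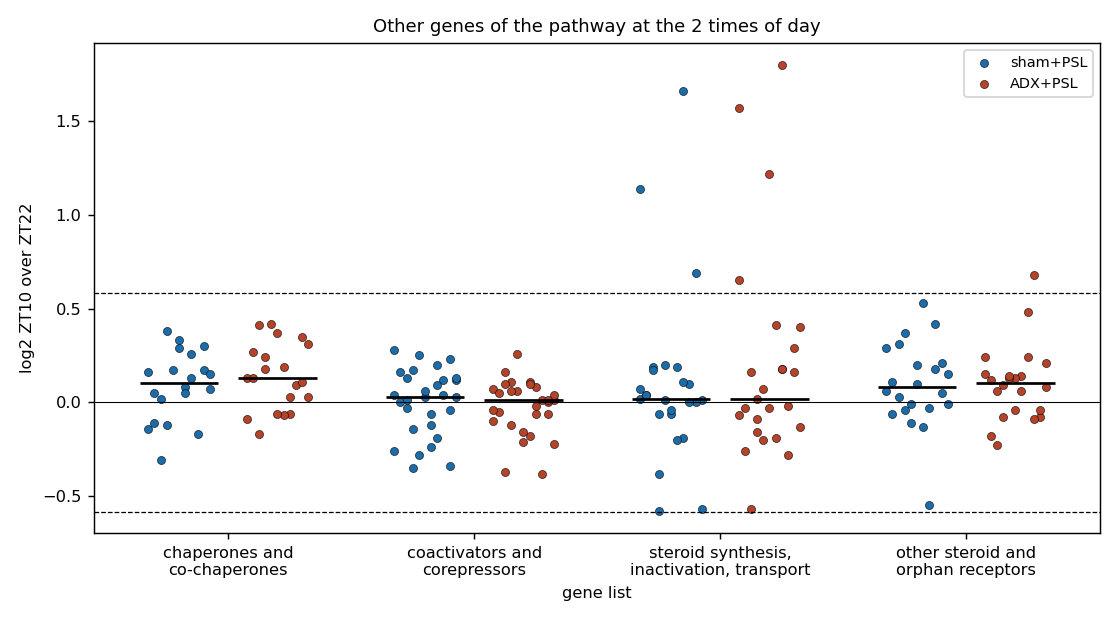
Log2 difference between ZT10 and ZT22 (vertical axis) of each gene of the 4 lists, by its brightest probe, in sham+PSL (blue) and ADX+PSL (red), for genes above background on all 4 arrays, with a line at the list's median and dashed lines at a 1.5-fold difference. In the list of steroid enzymes Sult2b1 lies at 1.66 and 1.80 and Sult1a1 at 1.14 and 1.57, and the chaperones and coregulators lie within the dashed lines.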

How the data were processed

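Total RNA of lumbar spinal slices was hybridized to 1-colour Agilent whole mouse genome arrays. The authors deposited, for each array, spot intensities of Agilent Feature Extraction (version 10.7.1.1 in the file headers, 9.5.1.1 in the submitters' processing notes): a processed signal that is background-corrected within the array, its error, mean and background intensities, and flags. A further deposited table holds normalized intensities, linear and 1 value per probe. This table is within 0.00052 on the log2 scale of the geometric mean of a probe's processed spot signals after quantile normalization over the 4 arrays. Groups were taken from the sample titles.

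Levels are those of the deposited table, and flags those of the spot files. A difference was formed where both arrays were well above background, and counted at a ratio of 1.5, the study's limit of 2 being an alternative, since the difference of a single pair of arrays has no test. The arrays' number limits the precision. The additive fit used limma 3.58.1 in R 4.3.3 on the 28843 probes above background on any array, and p-values were adjusted by the Benjamini-Hochberg method. Other steps used Python 3.11.15, numpy 2.4.6 and pandas 2.3.3, and were tested on simulated data. No column of per-sample values other than those of the 4 arrays was present.

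All probes of the 10 genes are named, the brightest standing for a gene. From each pathway list up to 3 genes with the largest difference were named. The genes, lists and markers were chosen with earlier results of these data known. Accessions matched RefSeq for 17 of 20 probes, and all 17 gave the same symbol. Probe coordinates are those of mm9 in the files, and no annotation of that build was used here. The alternatives were other normalizations, normexp with an offset of 50, the removal of outlier spots, other filters, the mean over a gene's probes, stricter limits, an intensity trend and a fit without the other factor.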

Additional observations from a re-analysis of the deposited data

Results flagged for a closer look

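Fkbp4 differed between the operations in opposite directions at the 2 times: ADX+PSL was lower than sham+PSL at ZT10 by a log2 difference of -0.30 and higher at ZT22 by 0.30, a difference of 0.61 between the comparisons, with a spot error of 0.29. Red blood cell markers had the same pattern, with medians of -0.51 and 2.38, and their part was not tested. The intron-spanning probe of Ncoa1 (A_66_P126138) differed between the times in opposite directions, by 0.21 in sham+PSL and -0.29 in ADX+PSL, a difference of -0.50. The other Ncoa1 probes had 0.01 and 0.24, and 0.15 and 0.07, and did not share the pattern. Neither difference was tested, since there was 1 array per condition. Opposite differences that both exceeded the spot error were found for 5.08% of 25009 probes between the operations and for 5.39% between the times.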

How the results depend on the processing

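At a ratio limit of 2, alone or with a Z-score of 2, the 2 probes counted between the times in sham+PSL became 0, and at both limits neither Fkbp4 nor Hsd11b1 was counted. Without normalization between arrays 1 probe, Hsd11b1, passed the limit of 1.5 between the times in ADX+PSL, and with no filter on dim probes 1, Hsd11b2, passed it between the operations at ZT10. The count between the times in sham+PSL was 3 with no filter, Hsd11b2 included. All other counts under alternatives equalled those given, and of the log2 differences 249 kept their value within the spot error, 3 moved and 0 reversed. The 3 were Nr3c2 between the operations at ZT10 (-0.30 with normexp), and Ncoa1 between the times in ADX+PSL (0.00) and between the operations at ZT22 (0.16) as the mean over its probes. The cause of these moves was not tested. Over 6 alternatives the time difference of Hsd11b1 ran from -0.79 to -0.70 in sham+PSL and from -0.67 to -0.52 in ADX+PSL, and that of Fkbp4 from 0.71 to 0.81 and from -0.01 to 0.16. Leaving out normalization between arrays moved the median of all probes by 0.12 between the operations at ZT22 and by -0.10 between the times in ADX+PSL. The additive fit called between 0 and 39 probes of the array under its alternatives and 0 probes of the 10 genes. No paired analysis was possible because each condition had 1 array without a replicate number, and leaving out an array leaves the additive fit without residual degrees of freedom. Quantile normalization by pairs of arrays was not run for that fit.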

Other observations

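Marker lists that were not set beside a gene above had the following medians of log2 differences. Astrocyte markers had -0.02 between the times in sham+PSL and 0.10 in ADX+PSL, and 0.06 and -0.05 between the operations at ZT10 and ZT22. Oligodendrocyte markers had -0.09 between the times in sham+PSL. Endothelial markers had -0.03 between the times in sham+PSL and -0.36 in ADX+PSL, and 0.16 between the operations at ZT22. In ADX+PSL Hsd11b1 was lower at ZT10 too, and the part of these markers in its values was not tested. Schwann cell markers had -0.25 at ZT10 and -0.35 at ZT22 between the operations, over 6 genes. Of these 6, 3 had both ADX+PSL levels under both sham+PSL levels, the order of Nr3c2. Their part in the Nr3c2 values was not tested. The fast skeletal muscle markers, set beside Hsd11b1 and Fkbp4 above for the times, had medians of -1.98 at ZT10 and 0.10 at ZT22 between the operations, over 6 genes, and Myh1, Myh2 and Mylpf were not well above background.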
